A study of Mus musculus with 3 samples.

Results

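The genes described here encode integrins and other receptors for the extracellular matrix, with some of the proteins that hold integrins to the actin cytoskeleton, as measured in the early mouse embryo. They were chosen by gene symbol alone, as the symbols built on the stems *Itga*, *Itgb*, *Itgb1bp*, *Sdc*, *Ddr*, and *Gpc* together with *Dag1*, *Cd44*, *Ilk*, *Ptk2*, *Tln1*, *Vcl*, and *Pxn*, which gave 48 of the 30854 symbols in the deposited table. They comprise 18 integrin alpha subunits, 8 integrin beta subunits, 3 proteins that bind the tail of the beta 1 subunit, 4 syndecans, 6 glypicans, 2 discoidin domain receptors, dystroglycan (*Dag1*), the hyaluronan receptor *Cd44*, and 5 focal adhesion proteins.

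The samples were wild-type mouse embryos at the early headfold (EHF) stage, of the strain given in the labels as Cd-1 and in the methods of the study as ICR. Embryos were cut at the boundary with the extraembryonic tissue, and total RNA of the embryonic part, isolated with a column kit per the labels and placed in TRIzol per the methods, was labelled with biotin and hybridized to 3 Illumina Mouse-6 bead arrays. The 3 arrays, replicates 1, 2, and 3, form a single group with no treatment or mutant allele, so the comparison that the data allow is that of each gene with the background of its own array. Neither source says whether an array holds 1 embryo or a pool, and any spread between arrays may be technical.

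Integrins are pairs of an alpha and a beta subunit that span the cell membrane, bind fibronectin, laminin, collagen, or ligands on other cells, and recruit talin, kindlins, vinculin, and kinases on their cytoplasmic side. Syndecans and glypicans carry heparan sulfate chains, which bind matrix proteins and growth factors, and dystroglycan binds laminins through its sugars. In the mouse embryo, loss of fibronectin or of the alpha 5 subunit disturbs mesoderm, and loss of the beta 1 subunit or of the laminin gamma 1 chain stops development around implantation.

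For each symbol the authors deposited a log2 signal, which was not normalized between arrays, and a detection p-value, which for a symbol with 1 probe gives the fraction of the array's negative controls that were as bright or brighter. A gene was counted as above background where this p was under 0.01 on all 3 arrays. The signals had medians of 6.57, 6.51, and 6.42 on replicates 1, 2, and 3. For symbols with 1 probe, a p under 0.01 corresponded to a signal of at least 6.69, 6.66, and 6.58, and the signal above which no negative control lay was 6.94, 6.88, and 6.64. Levels normalized between arrays are given relative to the level at this p cut-off, which is called background below. A level of 0 thus lies at the bright end of the negative controls and not at their middle. The median of this level over all symbols was −0.47. Of the 48 genes, 23 had 1 probe and 25 had several, up to 9 for *Cd44*. For a symbol with several probes the deposited signal is a mean over the probes and the deposited p combines theirs. Signals of different genes come from different probes and are not set against each other here. In bulk RNA, fewer cells that express a gene and less RNA per cell cannot be told apart.

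Of the markers of the embryonic region, 11 of 14 were above background, and of those of visceral endoderm 13 of 14, against 20.6% of all 30854 symbols. The markers do not tell visceral endoderm that overlies the embryo from that of the extraembryonic part, and carry-over across the cut was not tested. By in situ hybridization at head-fold stages, the study found the visceral endoderm marker *Apoc2* in the extraembryonic part and not in the gut endoderm. *Apoc2* is not among the markers counted here. Of the markers of extraembryonic ectoderm, 4 of 9 were above background, which were *Cdx2* and *Tfap2c* (listed as *Tcfap2c*), which the embryo itself also expresses, *Rhox5* at signals of 9.81, 9.92, and 8.43, and *Ets2* at 9.04, 8.83, and 8.12. *Elf5* was on no array and *Esrrb* on 1. The count was 2 of 6 for parietal endoderm and 2 of 9 for endothelial and blood progenitors. None of these marker counts was tested against the share of all symbols. None of 9 leukocyte markers, 6 megakaryocyte and platelet markers, or 6 decidual markers was above background on all 3 arrays, although of the leukocyte markers *Coro1a* was on 2 and passed the limma test, while *Ptprc*, *Laptm5*, and *Tyrobp* were on none, and the decidual marker *Wnt4* was on 1. The part of these cells in the values below was not tested.

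Of the 48 genes, 11 were above background on all 3 arrays. This is 22.9% of them, against 20.6% of all 30854 symbols. The share among integrin subunits was 3 of 26, and among the other 22 genes it was 8. The mean normalized level lay above the background of its own arrays in 11.5% of the integrin subunits and 59.1% of the other 22 genes, against 29.7% of all symbols. At least 2 arrays gave 16 of the 48 genes, or 33.3%, against 25.6% of all symbols, and at least 1 array gave 19, or 39.6%, against 33.0%.

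The integrin alpha subunits above background were *Itga5*, the partner of beta 1 in the classical fibronectin receptor, and *Itga3*, which pairs with beta 1 to bind laminins. The log2 signals of *Itga5* were 7.46, 7.46, and 7.08 on the 3 arrays in order of replicate. *Itga3* had signals of 7.88, 7.97, and 7.58. The signal of *Itga3*, from 1 probe, and the mean signal of *Itga5* over 2 probes lay above the brightest negative controls on every array. In both genes, replicate 3 was the lowest. The second probe of *Itga5* lay within the range of the negative controls on every array, with a p of 0.01 or more on replicates 2 and 3, as given below. After background correction and quantile normalization, *Itga5* was 1.62 ± 0.15 above background on the log2 scale (SE, n = 3 arrays) and 0.68 to 1.84 over 9 alternatives, with a highest adjusted p of 0.00191 among them in the limma test. *Itga3* was 2.40 ± 0.15 above background, 1.16 to 2.58 over 10 alternatives, with a highest adjusted p of 0.000408. The fit gave every gene the same standard error. For these and the other genes above background, the lowest level came without background correction and the highest, except for *Sdc3*, without replicate 3.

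The remaining alpha subunit detected on any array was *Itga9*, which binds tenascin and other ligands as a partner of beta 1. It was detected on replicates 1 and 3 only. Its signals were 6.74, 6.55, and 6.62, with detection p-values of 0.00534, 0.125, and 0.00427. Each of these signals falls within the range of the negative controls, the middle one below the cut-off. Relative to background, the normalized level of *Itga9* was −0.02 ± 0.15, and limma gave no call under any of 10 alternatives.

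The other 15 alpha subunits were at background on every array, with signals between 6.26 and 6.63 and no detection p below 0.0381. They include all 4 collagen-type subunits, *Itga1*, *Itga2*, *Itga10*, and *Itga11*, and all 5 leukocyte subunits, *Itgad*, *Itgae*, *Itgal*, *Itgam*, and *Itgax*. The laminin receptor subunits *Itga6*, which also pairs with beta 4 in hemidesmosomes, and *Itga7*, known from muscle, were among them. So were *Itga4*, which binds fibronectin and a ligand on other cells, *Itga8*, which binds nephronectin, *Itga2b*, the platelet subunit, and *Itgav*, the shared partner of 5 beta subunits. *Itgav*, averaged over 4 probes, had signals of 6.53, 6.55, and 6.34 and detection p-values of 0.620, 0.0381, and 0.872. The normalized levels of the 15 genes relative to background ranged from −0.62 to −0.46 on the log2 scale. A probe at background sets only an upper bound on the signal of its own transcript, and a low RNA level was not told apart from a probe that binds poorly.

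Among the beta subunits, *Itgb5*, which pairs with alpha v to bind vitronectin, was above background on all 3 arrays. Its signals were 6.998, 7.057, and 6.775, each above the brightest negative controls of its array. Its normalized level was 0.83 ± 0.15 above background (log2, SE, n = 3 arrays), between 0.30 and 1.00 over 10 alternatives, with a highest adjusted p of 0.00921 among them in limma.

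*Itgb1*, the most widely shared beta subunit, was at the edge of detection. Its signals, averaged over 2 probes, were 6.72, 6.62, and 6.54, and its detection p-values were 0.00148, 0.0297, and 0.00678. The signal exceeded the cut-off for 1 probe on replicate 1 alone, and on the other 2 arrays it was below it. The normalized level was −0.07 ± 0.15 relative to background, and limma gave no call under any of 9 alternatives. *Itgb4*, the laminin receptor subunit of epithelial hemidesmosomes, also with 2 probes, had signals of 6.67, 6.69, and 6.43 and detection p-values of 0.000824, 0.000112, and 0.144. It thus met the threshold on replicates 1 and 2, although its mean signal lay below the brightest negative controls on every array. The mean signal exceeded the cut-off for 1 probe on replicate 2 alone. Relative to background, the normalized level of *Itgb4* was −0.19 ± 0.15, and limma gave no call under any of 9 alternatives.

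*Itgb2* and *Itgb7*, beta subunits of leukocytes, *Itgb3*, shared by the platelet receptor and the alpha v receptor, and *Itgb6* and *Itgb8*, partners of alpha v that bind latent TGF-beta, were at background. Signals of these 5 genes were 6.37 to 6.61, with no detection p below 0.0711.

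**Figure D1:**
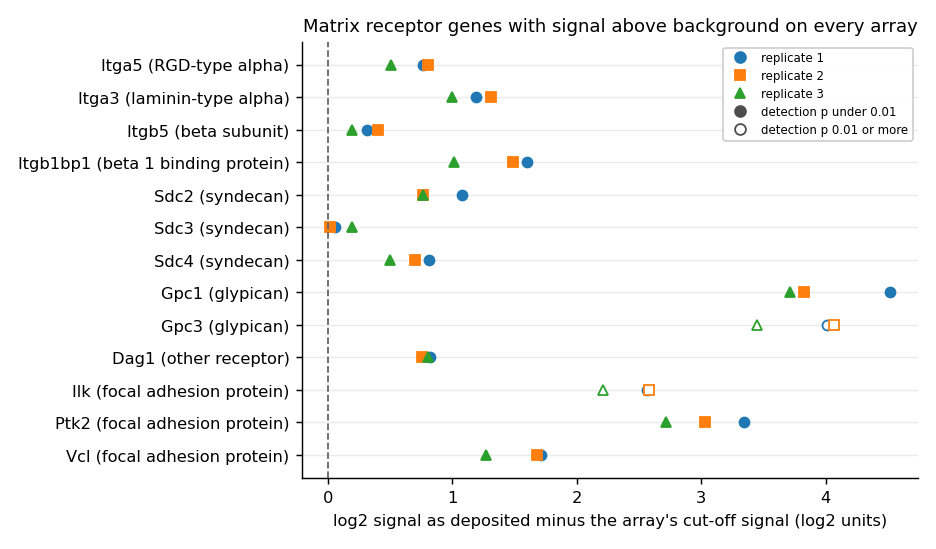
Log2 signal as deposited minus the cut-off signal of the array (log2 units) for the 13 genes whose signal exceeded the cut-off on all 3 arrays, with 1 symbol per replicate and open symbols where the deposited detection p was 0.01 or more. Of the integrin subunits, *Itga5*, *Itga3*, and *Itgb5* appear, and *Gpc3* and *Ilk* have open symbols on every array although their signals are 2.21 or more above the cut-off.

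**Figure D2:**
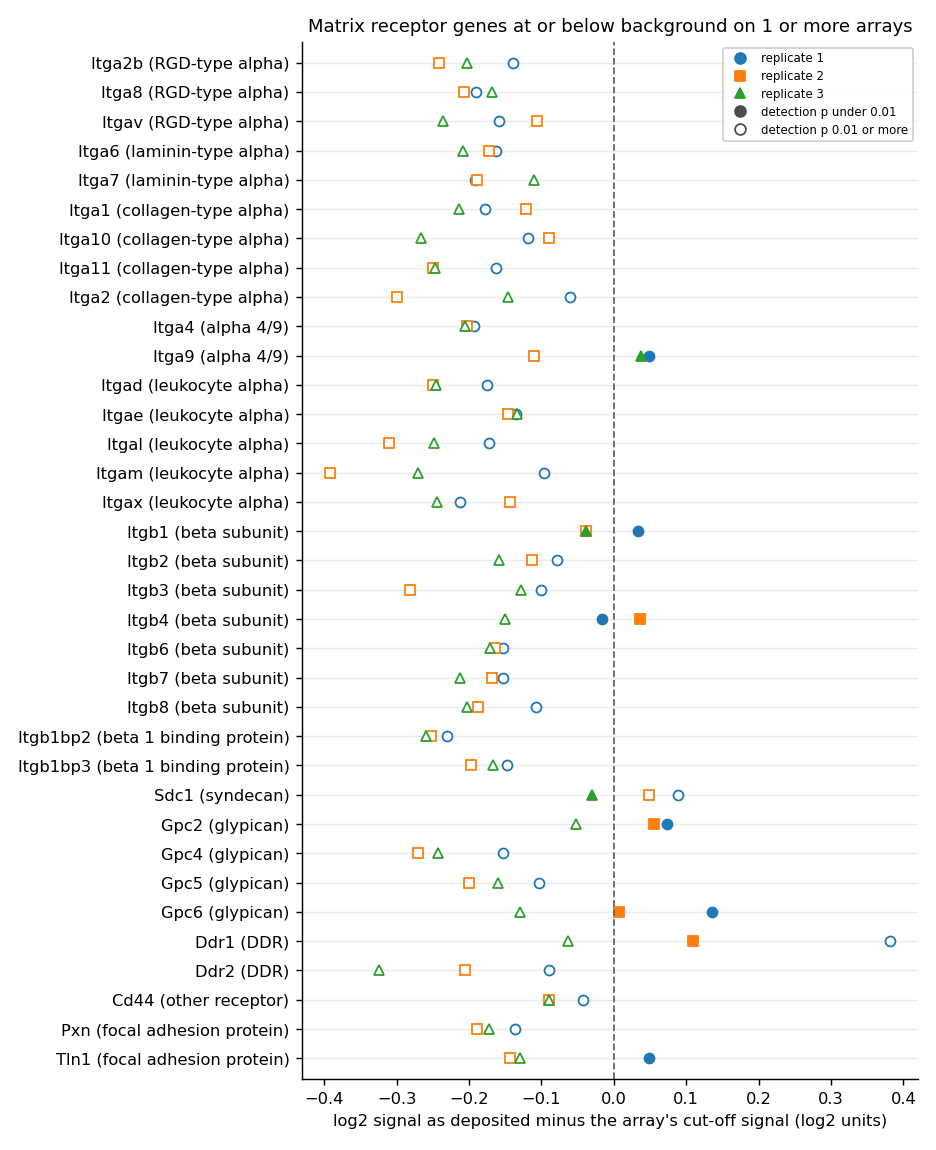
The same difference from the cut-off (log2 units) for the 35 genes that were at or below the cut-off on at least 1 array, with filled symbols where the detection p was under 0.01. *Itgb1*, *Itgb4*, and *Itga9* straddle the dashed cut-off line, while the other integrin subunits lie to its left on all 3 arrays.

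Since an integrin works as a pair, detection was also counted over 24 known alpha and beta pairs, 12 of which contain beta 1. No pair had both subunits above background on all 3 arrays. In 3 pairs 1 subunit was, namely *Itga3* with *Itgb1*, *Itga5* with *Itgb1*, and *Itgav* with *Itgb5*. With detection on at least 2 arrays, 3 pairs had both subunits, which were *Itgb1* with *Itga3*, *Itga5*, and *Itga9*. On replicates 1 and 3, where *Itgb1* passed by the combined p of its 2 probes, at least 1 of these probes did not pass alone. In 10 pairs neither subunit was detected on any array, including all 4 that contain *Itgb2*. Of all single symbols, 20.6% were above background on all 3 arrays, 25.6% on at least 2, and 33.0% on at least 1. Many pairs share a subunit and are not independent, and whether the pair counts differ from those of unrelated symbols was not tested. The count of pairs rests on *Itgb1* and, for the pair with *Itga9*, on that gene too. On replicate 2 their detection p-values were 0.0297 and 0.125, and leaving out this replicate raised the count from 0 to 3.

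**Figure D3:**
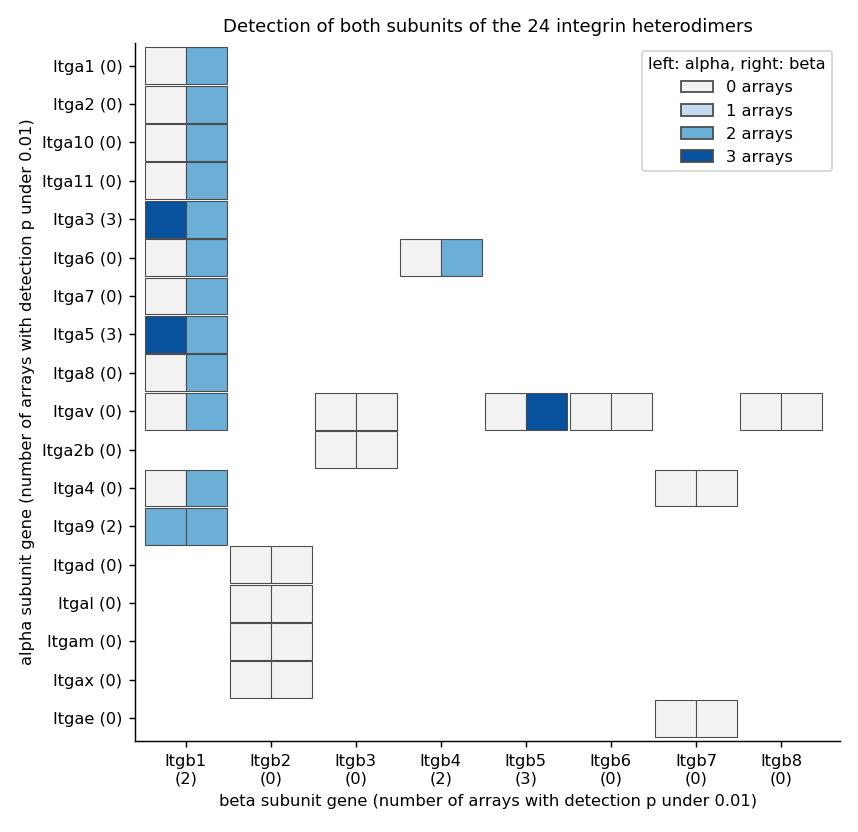
Number of arrays with a detection p under 0.01 for the alpha subunit (left part of a cell, rows) and the beta subunit (right part, columns) of 24 integrin pairs, with the numbers also given in parentheses beside the names. No cell is dark blue (3 arrays) in both parts, and *Itga3* and *Itga5* with *Itgb1* have 3 arrays on the left and 2 on the right.

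Of the proteins that bind the tail of the beta 1 subunit, *Itgb1bp1* (ICAP-1) was above background, with signals of 8.28, 8.14, and 7.60 from 2 probes and a detection p of 0 on every array. Both of its probes were therefore brighter than all negative controls. Its normalized level was 2.68 ± 0.15 above background, 1.35 to 2.98 over 9 alternatives, with a highest adjusted p of 0.00129 in limma. *Itgb1bp2* (melusin), known from striated muscle, and *Itgb1bp3*, now named *Nmrk2* and also known from muscle, were at background on all 3 arrays.

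The kinase *Ptk2* (FAK), which is activated at integrin adhesions, and the actin linker *Vcl* (vinculin) were above background. *Ptk2* had signals of 10.03, 9.69, and 9.29 and a normalized level 4.69 ± 0.15 above background, 3.02 to 4.92 over 10 limma alternatives with a highest adjusted p of 0.000229. *Vcl* had signals of 8.40, 8.33, and 7.85 and a normalized level of 2.93 ± 0.15, 1.54 to 3.18 over the alternatives, with a highest adjusted p of 0.000543. On the scale as deposited both were highest on replicate 1 and lowest on replicate 3, as were 84.9% and 93.4% of all symbols above background, respectively. *Tln1* (talin 1), which switches integrins to their active state, was detected on replicate 1 alone, with signals of 6.74, 6.51, and 6.45 and p-values of 0.00534, 0.233, and 0.173. The adaptor *Pxn* (paxillin) was at background on every array by its 5 probes.

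*Ilk*, the integrin-linked pseudokinase that joins beta 1 tails to parvin, was bright but failed the detection threshold on every array. Its signals were 9.25, 9.23, and 8.79, and its combined detection p-values were 0.0510, 0.113, and 0.0148. The combined p proved to depend on the sum of the p-values of the single probes, so this sum could be read back, and for *Ilk*, with 2 probes, it was 0.319, 0.475, and 0.172. Because its mean signal lay above every negative control, at least 1 probe had a p of 0, and the sum is then the p of the other probe. *Ilk* thus had a probe above background and a probe within it on each of the 3 arrays. Which transcripts the probes match was not analysed here. Tested by its mean signal, *Ilk* was 4.04 ± 0.15 above background, 2.44 to 4.24 over 9 alternatives, with a highest adjusted p of 0.000177 in limma.

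*Gpc3*, a glypican that binds hedgehog and Wnt proteins, showed the same pattern over 3 probes. Its signals were 10.70, 10.72, and 10.03, with combined p-values of 0.0130, 0.0617, and 0.130 and sums of 0.427, 0.718, and 0.921. At least 1 probe was brighter than all negative controls on each array, while at least 1 other lay within their range. By its mean signal *Gpc3* was 5.55 ± 0.15 above background, 3.82 to 5.81 over 9 limma alternatives, with a highest adjusted p of 0.000174. These were the 2 genes whose mean signal exceeded the cut-off on all 3 arrays without a combined p under 0.01 on any. Counting by mean signal therefore gave 13 of the 48 genes, or 27.1%, against 26.3% of all symbols, and the limma test gave 12, or 25.0%, against 25.7%. These shares depend on the number of probes. Of the 25 genes with several probes, each rule gave 5, against 38.2% and 36.8% of all such symbols. Of the 23 genes with 1 probe, the rules gave 8 and 7, against 20.8% and 20.6%. Over the whole table, the mean signal of 3287 symbols with more than 1 probe exceeded the cut-off on all 3 arrays, and 54.5% of them failed the combined p on at least 1 array, against 2 of the 5 such genes here.

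**Figure D4:**
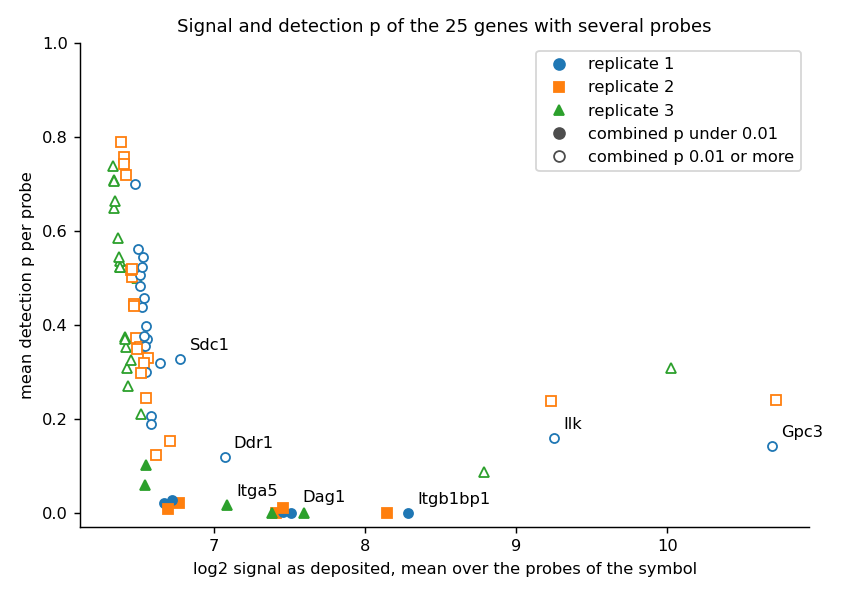
Mean detection p per probe against log2 signal for the 25 genes with several probes, with 1 symbol per array and filled symbols where the combined p was under 0.01. *Ilk* and *Gpc3* combine signals of 8.79 or more with a mean p per probe above 0.05 on every array, whereas *Dag1* and *Itgb1bp1* lie at 0.

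The combined p also passed genes in which 1 probe did not. For 2 probes it is under 0.01 when the p-values of the probes average 0.0705 or less, and for 9 probes, as in *Cd44*, where the combination could be read back only as a normal approximation, when they average about 0.276 or less. In *Itga5*, the second probe had p-values of 0.00107, 0.0192, and 0.0331, so 1 of its 2 probes was above the threshold on all 3 arrays and the other on replicate 1. The p-values of the 2 probes of *Itgb1* averaged 0.0272 on replicate 1 and 0.0582 on replicate 3, the arrays on which it was called. At least 1 probe thus had a p of 0.01 or more on each. The same holds for *Itgb4* on replicate 1, with an average of 0.0203. *Sdc1* (3 probes) had its brightest signal on the array with its highest p. Its signals were 6.78, 6.71, and 6.55, and its p-values 0.158, 0.0160, and 0.00471.

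The other syndecans, membrane proteoglycans that act beside integrins in adhesion, were above background on all 3 arrays. *Sdc2* had signals of 7.77, 7.42, and 7.34, a normalized level 1.93 ± 0.15 above background (0.86 to 2.07 over 10 limma alternatives), and a highest adjusted p of 0.00126. *Sdc4*, a component of focal adhesions, had signals of 7.50, 7.36, and 7.08, a level of 1.59 ± 0.15 (0.66 to 1.79), and a highest adjusted p of 0.00210. Every array of both exceeded its brightest negative controls. *Sdc3*, best known from neural tissue, was just above the cut-off, with signals of 6.74, 6.67, and 6.77 and p-values of 0.00321, 0.00641, and 0. Its level of 0.29 ± 0.15 did not pass the limma test (adjusted p = 0.108), nor did it under any of 10 alternatives.

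Among the glypicans, which are held to the membrane by a lipid anchor, *Gpc1* was above background with signals of 11.21, 10.48, and 10.29. Its normalized level was 5.74 ± 0.15 above background, 4.01 to 5.97 over 10 limma alternatives, with a highest adjusted p of 0.000240. *Gpc2* and *Gpc6* were detected on replicates 1 and 2. *Gpc2* had signals of 6.76, 6.71, and 6.53 and p-values of 0.00214, 0.00321, and 0.0299. *Gpc6* had signals of 6.82, 6.66, and 6.45 and p-values of 0.00107, 0.00748, and 0.171. Neither passed the limma test under any alternative. *Gpc4* and *Gpc5* were at background on every array.

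Dystroglycan, *Dag1*, had signals of 7.51, 7.41, and 7.38 and a detection p of 0 on every array, so both of its probes were above all negative controls. Its normalized level was 1.81 ± 0.15 above background, 0.79 to 1.85 over 9 limma alternatives, with a highest adjusted p of 0.000177. The collagen receptor kinase *Ddr1*, an epithelial gene, had signals of 7.07, 6.76, and 6.52 and combined p-values of 0.0281, 0.000868, and 0.0882. The p was under 0.01 on replicate 2 alone, although the signal on replicate 1 was higher, where 1 of its 2 probes was above all negative controls and the other had a p of 0.237. In limma *Ddr1* was 0.32 ± 0.15 above background (adjusted p = 0.0712), and without replicate 3 it was 0.70 above (adjusted p = 4.19e-07). *Ddr2*, known from mesenchymal cells, and *Cd44*, with signals of 6.64, 6.56, and 6.49, were at background.

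**Figure D5:**
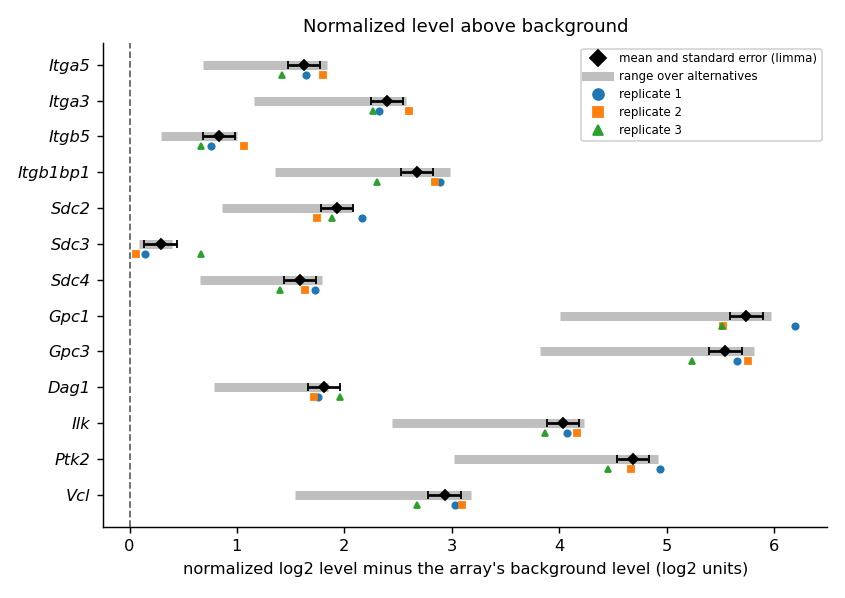
Normalized level minus the background level of the array (log2 units) for the 13 genes with signal above the cut-off on all 3 arrays, with the limma mean and standard error as diamonds and bars, single arrays as small symbols, and the range over alternatives in gray. The bars and ranges of 12 genes lie above 0 by 0.30 or more, and *Sdc3*, with a range of 0.09 to 0.40, is the exception.

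The spread between arrays was of similar size in these genes and in others above background. The SD of the deposited signal had a median of 0.21 in the 11 genes and 0.25 over the 6357 symbols, and after quantile normalization the medians were 0.21 and 0.17. Replicate 3 gave the lowest deposited signal in 10 of the 11 genes, against 93.4% of all symbols above background, and *Sdc3* was the exception. The normalized level of *Sdc3* was 0.14, 0.06, and 0.66 above background on replicates 1, 2, and 3. Before the background level was subtracted it was 4.82, 4.87, and 5.73. The SD of these unsubtracted levels, 0.511, exceeded that of 97.7% of the symbols above background. On the deposited scale, however, the SD of *Sdc3*, 0.051, was the lowest of the 11. After normalization *Sdc4* and *Ptk2* varied least of the 11, with an SD above that of 2.03% and 12.2% of those symbols, whereas the deposited SD of *Ptk2* was 0.368 and only that of *Gpc1* was higher. With 3 arrays of 1 group no difference between arrays was tested.

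Among 17 genes for matrix ligands of these receptors, 9 were above background on all 3 arrays, 2 on 1 or 2 arrays, and 6 on none. Beside the counts of this and the other lists stands the share of all symbols above background on all 3 arrays. That share was 20.6% by the detection p and 26.3% by mean signal. The fibronectin gene *Fn1* (4 probes) had signals of 8.20, 8.15, and 7.57 and passed the combined p on 2 arrays, with its mean signal above the cut-off on all 3. The laminin alpha chains *Lama1*, at 7.76, 7.78, and 7.76, and *Lama5*, at 8.00, 7.46, and 7.48, were above background, and the beta chain *Lamb1* (listed as *Lamb1-1*), at 6.64, 6.48, and 6.58, was not on any array. Fibronectin is the ligand of the alpha 5 receptor and laminins that contain *Lama5* are bound by the alpha 3 receptor, and the table does not say which cells made either.

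Of 32 further proteins of integrin adhesions, 15 were above background on all 3 arrays, 3 on 1 or 2, and 14 on none. In the complex that *Ilk* forms with PINCH and parvin proteins, *Parva* was above background with signals of 7.64, 7.69, and 7.15, and *Lims1*, *Lims2*, and *Parvb* were not on any array. The kindlin *Fermt2*, which was singled out after its values were seen, resembled *Ilk*, with 2 probes, signals of 9.43, 8.85, and 8.26, and no array under the combined threshold. Counting by mean signal raised the 15 proteins to 18.

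Of 17 genes that make or edit heparan sulfate, the sugar of syndecans and glypicans, 5 were above background on all 3 arrays by the combined p, 6 on 1 or 2 arrays, and 6 on none, and 12 were by mean signal. The chain polymerase *Ext1* had signals of 9.27, 9.07, and 8.55 and was above background on all 3 arrays. Its partner *Ext2* (4 probes) had signals of 6.91, 6.79, and 6.67, above the cut-off on each array, but failed the combined p on all of them. *Extl3* and *Ndst1*, which start and sulfate the chain, were called on 2 arrays each. Of 14 measured genes of the dystroglycan complex and of dystroglycan glycosylation, 2 were above background on all 3 arrays, 4 on 1 or 2, and 8 on none, and of the sarcoglycans *Sgcb* was on 2 arrays with signals of 6.98, 6.73, and 6.41, while *Sgca*, *Sgcd*, and *Sgce* were on none.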

How the data were processed

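RNA of the embryonic part of 3 EHF embryos or pools was measured on Mouse-6 Illumina arrays, and the authors analysed the arrays with Partek Genomics Suite. Replicates were taken from the labels. The authors deposited log2 signals per gene symbol, averaged over probes and not normalized between arrays, with a detection p-value, the number of beads (medians 44, 43.5, and 43), and a standard error over beads. Neither the normalization nor a genome build is given in the sources used here. The number of arrays limits the precision.

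The deposited p-values moved in steps of 1 in 936, which with the bead numbers gave the number of probes (21977 symbols with 1, 8596 with several, 281 undetermined). With 2 probes, 97.2% of values, and with 3 probes, 99.7%, lay within 0.02 steps of those that a sum of per-probe p-values gives. With 4 to 9 probes a normal approximation was used, which 87.5% to 93.8% of values met. For levels, signals were corrected with normexp, fitted on symbols with 1 probe, offset by 16, and quantile normalized, and the level minus the array's background level was tested in limma (lmFit, eBayes, one-sided) with Benjamini-Hochberg adjustment over 30854 symbols and a threshold of 0.05. The background level was the lowest level of a 1-probe symbol with a p above 0 and under 0.01 (4.68, 4.81, and 5.06). The test was also run on simulated data in which all genes shared the same spread and the unraised genes lay below background. Such data cannot show how the test performs where the spread differs between genes, or for genes right at background.

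Every gene chosen by symbol is named, and of the other lists up to 4 genes in list order, where any are named. *Fermt2*, *Wnt4*, *Rhox5*, and *Ets2* were named after their values were seen. The genes, lists, and tests were chosen with earlier results of these data known. Alternatives were other detection thresholds, fewer arrays, other normalizations, offsets and background levels, filters, and leaving out each replicate. Calls by mean signal and by the sum of p over probes were added after seeing the data. No sequences were used. The software was R 4.3.3 with limma 3.58.1 and Python 3.11.15 with scipy 1.17.1, numpy 2.4.6, pandas 2.3.3, and matplotlib 3.10.9.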

Additional observations from a re-analysis of the deposited data

How the results depend on the processing

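The count of genes above background, 11 with detection on all 3 arrays, was 13 at a detection p under 0.05, 10 at 0.001, 16 on at least 2 arrays, and 19 on at least 1, where all symbols gave 10172 in place of 6357. It was 12 in limma, which shared 10 of the 11, 13 by mean signal, and 10, without *Itga5*, where all probes had to pass together. Leaving out a replicate gave 11 to 14. The count of integrin pairs, 0, became 2 at a detection p under 0.05 and 3 on at least 2 arrays or on at least 1, and was 0 to 3 with a replicate left out. The limma count was 12 or, without replicate 3, 13, except with symbols of 1 probe only, where it was 7 because 23 of the 48 genes could be tested. The heparan sulfate list moved from 5 genes to 12 by limma or mean signal. Without background correction the levels of the 12 genes called in limma fell to 0.30 to 4.01, from 0.83 to 5.74. No level changed direction among the calls, and *Ddr1* passed without replicate 3 alone. No paired analysis was possible because the arrays form a single group. The fit gave every gene the same standard error, so its adjusted p-values take no account of differences in spread between genes, and a gene at background has only an upper bound.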
